A study of Mus musculus with 26 samples.

Results

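The genes described here are 10 immediate early genes of mouse liver, chosen by name: Egr1, Egr2, Ier2, Ier3, Btg2, Zfp36, Dusp1, Klf6, Myc and Mcl1. Earlier results of these data were known when they were chosen. The study mapped where proteins sit on DNA in regenerating liver by ChIP-seq, the sequencing of DNA fragments that are pulled down with an antibody. Of the 10 genes, 9 were among the 21075 gene names whose bodies could be measured for RNA polymerase II (Pol II), and 8 were among the 4779 genes with enough Pol II signal to be tested. Ier2 was left out of the measured names because only 165 bp of its body were scored, and Egr2 lay below 0 in all 8 Pol II libraries. Both are described by their values below.

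Immediate early genes are switched on by signals through transcription factors that are already present in the cell, so no new protein has to be made first. Their RNAs are short-lived, and many of them encode transcription factors or proteins that shut the same signal down again. In the liver they are known for a rapid response to partial hepatectomy, at the passage of hepatocytes from quiescence into the cell cycle. C/EBPalpha and C/EBPbeta are related DNA-binding proteins of hepatocytes, and Egr1 is a zinc-finger transcription factor that is itself the product of one of the genes followed.

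The livers came from male C57BL6/J wild-type mice of 7 weeks, a common inbred laboratory strain, that had lost 3 of 5 liver lobes. The tissue removed at the operation was the 0 h sample, and later livers were taken at 3, 8, 16, 24, 36, 48 and 168 h. Pol II, C/EBPalpha and C/EBPbeta were each immunoprecipitated at all 8 times, and Egr1 at 36 h only. Each antibody and time had 1 sample. The labels name 5 mice for each time but not how their livers were combined. Without replicates no difference between single times could be tested, and the 7 later times all share the single 0 h library. The samples were whole liver, so more Pol II per cell and more cells of a type that uses a gene cannot be told apart. No sham-operated group was analysed here, so time after the operation and the response to lobe loss cannot be told apart either.

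Promoters are shown because these genes are grouped by how they are switched on, through serum response factor, which binds the CArG box, through CREB and related factors, which bind the cAMP response element (CRE), or through EGR proteins. The stretches are the 250 bases before the RefSeq start in build GRCm38.p6, with matches to a CArG box, to the EGR motif GCGNGGGCG, to the CRE TGACGTCA or to the STAT motif TTCNNNGAA in capitals. RefSeq promoter windows were matched for 7 of the 10 genes, and Egr1, Ier2 and Myc were not among them. Zfp36 (chr7:28379229-28379478, minus strand) held 3 kinds of match, Btg2 (chr1:134079156-134079405, minus) and Dusp1 (chr17:26508473-26508722, minus) both held a CRE, Egr2 (chr10:67537619-67537868, plus) held a CArG box, and Ier3 (chr17:35821463-35821712, plus) held none of them.
Zfp36: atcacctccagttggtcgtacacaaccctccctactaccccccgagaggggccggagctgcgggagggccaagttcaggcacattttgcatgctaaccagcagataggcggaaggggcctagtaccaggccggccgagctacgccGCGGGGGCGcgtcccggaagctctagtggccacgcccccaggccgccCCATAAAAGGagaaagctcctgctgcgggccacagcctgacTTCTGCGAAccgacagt
Btg2: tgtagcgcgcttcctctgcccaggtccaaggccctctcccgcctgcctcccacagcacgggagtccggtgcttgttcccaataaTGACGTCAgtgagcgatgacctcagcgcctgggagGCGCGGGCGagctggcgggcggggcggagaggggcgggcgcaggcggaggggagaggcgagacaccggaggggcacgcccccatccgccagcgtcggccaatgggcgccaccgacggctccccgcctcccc
Dusp1: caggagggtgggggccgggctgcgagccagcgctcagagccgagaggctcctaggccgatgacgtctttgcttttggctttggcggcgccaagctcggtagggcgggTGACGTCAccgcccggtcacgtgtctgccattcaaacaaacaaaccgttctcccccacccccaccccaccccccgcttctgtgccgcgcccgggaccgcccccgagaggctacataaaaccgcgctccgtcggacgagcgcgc
Egr2: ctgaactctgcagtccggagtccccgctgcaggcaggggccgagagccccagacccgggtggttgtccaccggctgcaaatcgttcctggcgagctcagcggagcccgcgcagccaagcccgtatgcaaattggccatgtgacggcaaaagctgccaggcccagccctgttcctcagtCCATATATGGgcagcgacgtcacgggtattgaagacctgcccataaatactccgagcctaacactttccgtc
Ier3: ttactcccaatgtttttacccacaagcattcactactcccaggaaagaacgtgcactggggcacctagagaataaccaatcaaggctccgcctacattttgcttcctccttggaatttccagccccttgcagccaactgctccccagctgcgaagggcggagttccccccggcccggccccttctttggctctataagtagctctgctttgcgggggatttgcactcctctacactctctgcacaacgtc

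In Zfp36 the CArG box began 58 bases before the RefSeq start, at position -58, the EGR motif at -105 and the STAT motif at -17. In Btg2 the CRE began at -166 and an EGR motif at -131. The CRE of Dusp1 began at -143, and the CArG box of Egr2 at -72 in the window shown, which is 1 of 5 that RefSeq gives for Egr2. The Egr2 stretch at chr10:67535249-67535498 had no CArG box. Klf6 and Mcl1, whose stretches are not shown, held none of these motifs, as was the case for Ier3. Both strands were searched in the full RefSeq windows, which run from 250 bases before to 50 bases after each start. A CArG box was found in 1.63% of all 32851 windows, a CRE in 1.79%, an EGR motif in 5.55% and a STAT motif in 8.30%. Neither the C/EBP motif TTGCNNAA, present in 10.8% of windows, nor TATAAA, in 13.6%, was found for any of the 7 genes. The letters say nothing about which factor was bound in these livers, and the mm9 regions described below were not placed on them.

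The gene bodies, in build mm9 and from about 500 bp past the start to the end of each gene model, were as follows. The transcription factor genes were Egr1 at chr18:35021362-35024610 on the plus strand, Egr2 at chr10:67001127-67004936 (plus), Klf6 at chr13:5861236-5869639 (plus) and Myc at chr15:61817397-61821907 (plus). The genes of mRNA decay and growth arrest were Zfp36 at chr7:29161804-29163747 (minus) and Btg2 at chr1:135971443-135975232 (minus). Dusp1, a phosphatase of MAP kinases, lay at chr17:26642543-26644919 (minus). The survival genes were Mcl1 at chr3:95463280-95467099 (plus) and Ier3 at chr17:35959130-35959855 (plus). Ier2 lay at chr8:87185986-87186150 (minus). No other gene entry overlapped any of the 10 bodies, and the closest neighbour was Flot1, 441 bp from the body of Ier3. For Ier2 the gene model used for the files was 665 bp long against 1522 bp in RefSeq, for Egr2 it was 4310 against 7720 bp, and for Mcl1 4320 against 6236 bp, so their signal covers part of the RefSeq gene only.

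Pol II signal is given per bp of gene body after the libraries were put on a common scale, and it is a signed value that can fall below 0. The plot of Pol II by time shows all 10 genes. The common pattern was a peak at 3 h: 7 of the 8 tested genes had their highest value in the 3 h library, against 20.7% of all tested genes, and the eighth, Mcl1, had its second highest there. As the genes were chosen with earlier results of these data known, these shares are a description and not an independent contrast.

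**Figure D1:**
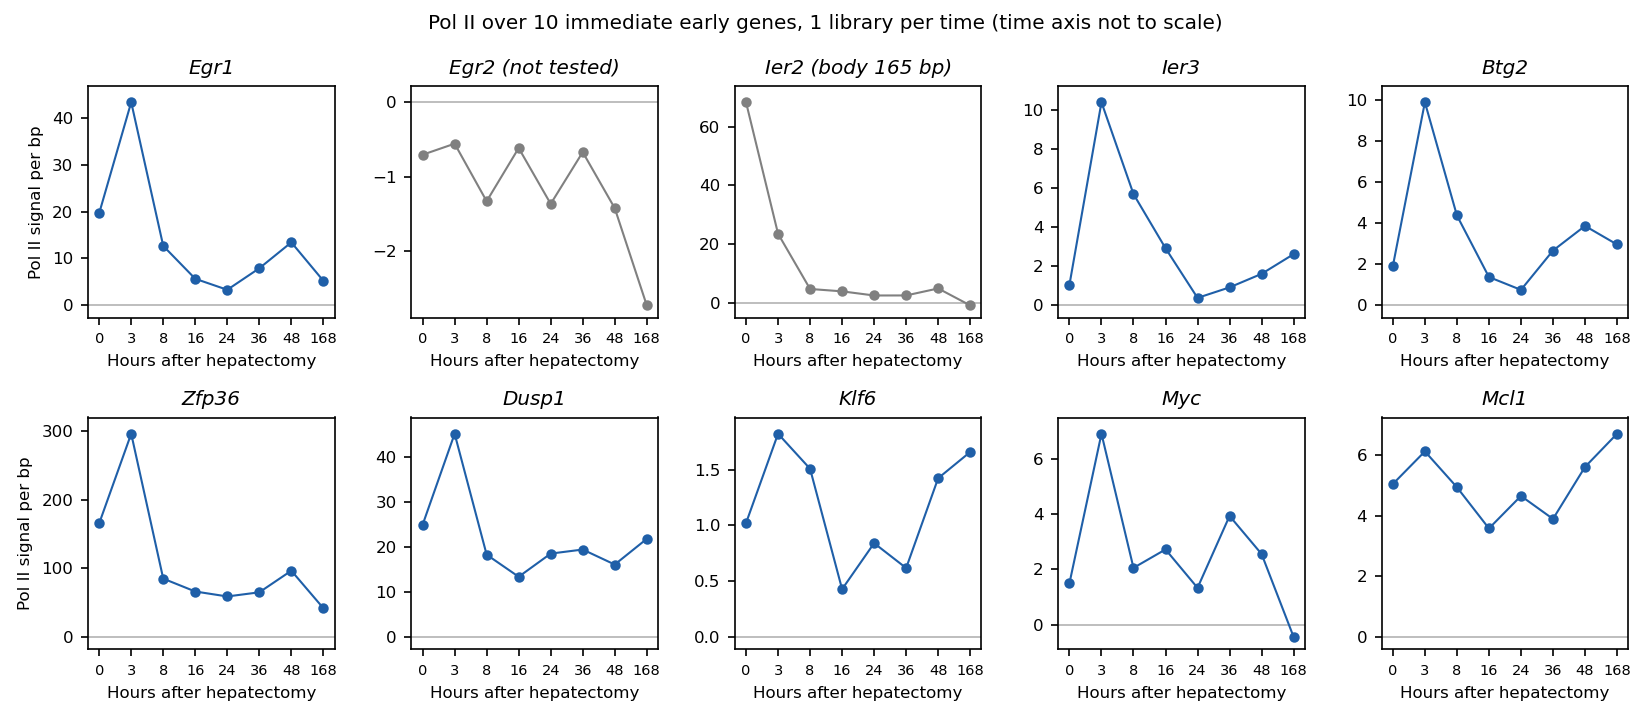
Pol II signal per bp of gene body (y axis, a separate range for each gene) at 0 to 168 h after hepatectomy (x axis, evenly spaced and not to scale), with 1 library per point and no error bars because there were no replicates. Blue genes were tested and grey genes were not, and 7 of the 8 blue curves are highest at 3 h, from 1.82 for Klf6 to 296 for Zfp36.

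Among the transcription factor genes, Egr1, the zinc-finger factor that gives the family its name, was at 19.6 signal units per bp at 0 h, 43.3 at 3 h, then 12.7, 5.67, 3.32, 7.91, 13.4 and 5.24 at 8, 16, 24, 36, 48 and 168 h. The 3 h value was 2.20 times the 0 h value, and all 6 other later values lay below 0 h. Egr1 was thus already occupied in the resected liver, where it ranked 114 of the 4779 tested genes by level per bp, and its lowest value, at 24 h, was 2.40 below 0 h on the log2 scale. The immunoprecipitation of the Egr1 protein was made at 36 h, when Pol II over its gene stood at 7.91.

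Egr2, a relative of Egr1 that binds a like motif, was below 0 at every time, from -2.73 at 168 h to -0.56 at 3 h. It gave no Pol II signal above 0 in any library, and a fold change was not computed.

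Myc, the growth and cell-cycle factor, was at 1.5 at 0 h, 6.91 at 3 h, then 2.05, 2.72, 1.33, 3.93, 2.56 and -0.44 at 8, 16, 24, 36, 48 and 168 h. Its 3 h value was 4.60 times that at 0 h. At 36 h it was the one gene of the 8 that was above 0 h by 1 or more on the log2 scale, by 1.15, and it ended below 0. Klf6, a Krüppel-like factor, had the lowest level per bp of the tested genes at 0 and 3 h. It was at 1.02 at 0 h, 1.82 at 3 h, then 1.51, 0.428, 0.840, 0.617, 1.42 and 1.66 at 8, 16, 24, 36, 48 and 168 h. Its 3 h value was only 1.10 times that at 168 h.

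Zfp36 encodes tristetraprolin, which marks AU-rich mRNAs for decay. It was at 166 at 0 h, 296 at 3 h, then 85.0, 66.2, 59.0, 65.0, 96.5 and 41.9 at 8, 16, 24, 36, 48 and 168 h. It had the highest level per bp of the 10 genes in all libraries and ranked 4 of the 4779 tested genes at 0 h and 10 at 3 h. From 8 h on every value was below that of the resected liver, by 0.78 at 48 h to 1.97 at 168 h on the log2 scale.

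Btg2, an antiproliferative factor that also promotes mRNA deadenylation, started low. It was at 1.92 at 0 h, 9.89 at 3 h, then 4.38, 1.38, 0.756, 2.67, 3.87 and 2.97 at 8, 16, 24, 36, 48 and 168 h. The 3 h value was 5.16 times that at 0 h, and unlike Egr1 and Zfp36 it was above 0 h again at 36, 48 and 168 h, the last of these not without rescaling.

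Dusp1, which dephosphorylates ERK, JNK and p38, was at 24.9 at 0 h, 45.1 at 3 h, then 18.3, 13.4, 18.5, 19.4, 16.1 and 21.8 at 8, 16, 24, 36, 48 and 168 h. The 3 h value was 1.81 times that at 0 h. After 3 h Dusp1 stayed in a narrow range, from 13.4 to 21.8, and all 6 values were below 0 h.

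Ier3, a stress-induced regulator of survival, had the largest ratio of 3 h to 0 h among the 8 tested genes. It was at 1.06 at 0 h, 10.4 at 3 h, then 5.70, 2.93, 0.384, 0.922, 1.61 and 2.62 at 8, 16, 24, 36, 48 and 168 h. The 3 h value was 9.85 times that at 0 h, and 8 h kept 0.548 of the 3 h value, a larger share than for Egr1, Zfp36 or Myc (0.293, 0.287 and 0.297) and a smaller one than for Klf6 or Mcl1 (0.828 and 0.807). Mcl1, an antiapoptotic BCL2 protein, varied least. It was at 5.04 at 0 h, 6.12 at 3 h, then 4.94, 3.58, 4.65, 3.89, 5.61 and 6.70 at 8, 16, 24, 36, 48 and 168 h, and its highest value was 1.87 times its lowest.

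Ier2, a small nuclear regulator, was scored over 165 bp only and went another way. It was at 68.4 at 0 h, 23.5 at 3 h, then 4.65, 3.84, 2.42, 2.44, 4.83 and -0.96 at 8, 16, 24, 36, 48 and 168 h. Its 0 h value was its highest, and the short stretch leaves it out of the counts below.

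Set in order at 3 h by level per bp, the 8 tested genes ran from Zfp36 at 296 through Dusp1 at 45.1, Egr1 at 43.3, Ier3 at 10.4, Btg2 at 9.89, Myc at 6.91 and Mcl1 at 6.12 to Klf6 at 1.82. With no replicates, the spread at hand is that of single libraries around a smooth curve over time, drawn toward a value shared by all tested genes. It holds the misfit of the curve and is not the error of a difference between genes, so it serves as a rough yardstick only. This spread ran from 0.37 for Mcl1 to 0.82 for Myc on the log2 scale. Dusp1 and Egr1 (0.06 apart), Ier3 and Btg2 (0.07), Btg2 and Myc (0.49) and Myc and Mcl1 (0.16) lay closer together than that. Zfp36 was 2.70 above Dusp1, Egr1 2.01 above Ier3 and Mcl1 1.51 above Klf6, each more than that spread.

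On the log2 scale, with 0.5 added to each value, the changes from 0 to 3 h were 2.81 for Ier3, 2.10 for Btg2, 1.89 for Myc, 1.12 for Egr1, 0.84 for Dusp1 and for Zfp36, 0.61 for Klf6 and 0.26 for Mcl1. All 8 were above 0, as were 44.8% of all tested genes, and 4 were at 1 or more, against 18.1% of all tested genes. The median of the 8 was 0.98, and that of all tested genes was -0.08. The genes that were lowest at 0 h did not all change most, since Klf6 began at 1.02 and Ier3 at 1.06. From 3 to 8 h all 8 were lower, as were 42.7% of all tested genes. For the 7 genes highest at 3 h this was given in advance by that maximum, so it is no separate result. Of the 8, 5 (Zfp36, Egr1, Myc, Dusp1 and Btg2) were lower by 1 or more, against 12.5% of all tested genes, which were not taken at their highest value.

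**Figure D2:**
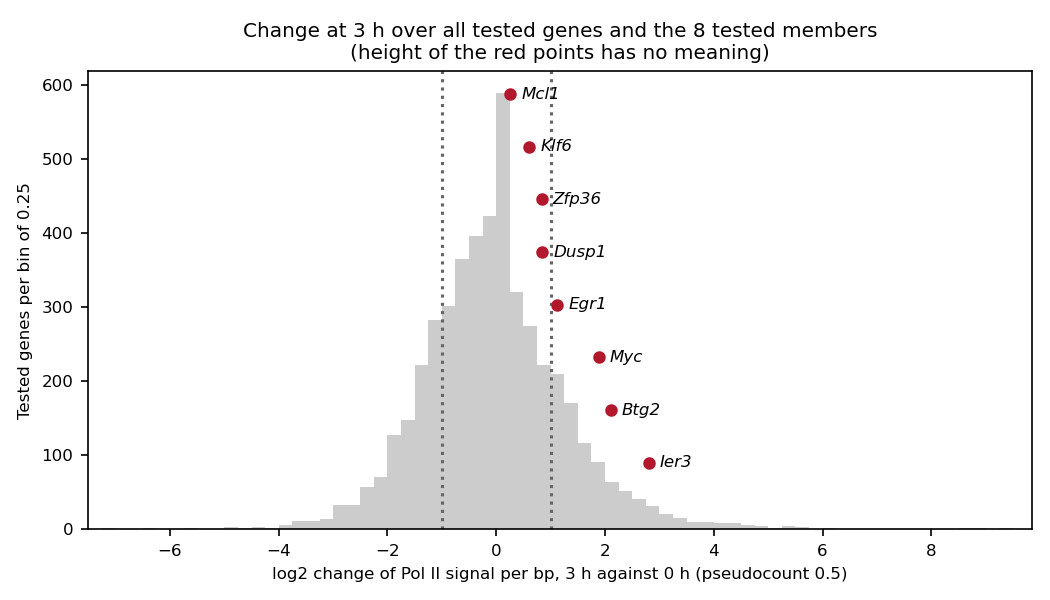
Histogram of the log2 change of Pol II signal per bp from 0 to 3 h over all 4779 tested genes (y axis, genes per bin of 0.25), with the 8 tested immediate early genes as red points at their own change and at heights without meaning. Dotted lines mark a change of 1 in either direction, and all 8 points lie right of 0, from Mcl1 at 0.26 to Ier3 at 2.81, with 4 of them beyond 1.

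After 3 h the genes parted. At 8 h Ier3 and Btg2 were still higher than at 0 h by 1 or more (2 of 8, against 14.4% of all tested genes), and none was lower by that much (12.7%). The value of Btg2, 1.01, was 0.74 without rescaling and 0.99 with a background set per library. At 16 h Ier3 remained in that class (1 of 8, 15.1%), while Egr1 and Zfp36 were lower by 1 or more (2 of 8, 10.6%). At 24 h the same 2 genes were lower (14.4%) and none was higher (18.4%). At 36 h Myc was higher (16.5%) and Egr1 and Zfp36 were lower (11%). At 48 h none of the 8 was past 1 in either direction (15.3% and 13.5%). At 168 h Ier3 was higher (17.8%), by 1.0 on the log2 scale, and Egr1, Zfp36 and Myc were lower (19.2%), by 1.81, 1.97 and 2.0. Ier3 at 168 h was at 0.26 without rescaling and 0.93 with a background set per library, and without rescaling Dusp1 was also lower by 1 or more, at -1.13 instead of -0.19. From 8 to 48 h the other calls that changed without rescaling were Zfp36 at 8 h (-1.29), 16 h (-0.99) and 48 h (-1.11), and Ier3 and Btg2 at 24 h (-1.06 and -1.25). The medians of the 8 from 8 to 168 h were 0.16, -0.58, -0.62, -0.34, 0.24 and 0.09, and those of all tested genes lay between 0.00 and 0.12. The times of the lowest value differed: 24 h for Egr1, Ier3 and Btg2, 16 h for Dusp1, Klf6 and Mcl1, and 168 h for Zfp36 and Myc.

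The 3 h values rest on 1 library that stood apart. As deposited, the signal of that library summed over all genes to below 0, and 50.6% of its entries lay below 0, against 38.4% to 44.3% in the other 7. The part of this in the 3 h values was not tested. With the median of all measured genes taken off in each library, 7 of the 8 genes were still highest at 3 h and the same number, 4, was higher by 1 or more. Without rescaling all 8 were highest at 3 h, 3 were higher than at 0 h by 1 or more, without Egr1 at 0.87, and the change of Mcl1 was 0.02. With the 3 h library left out, the highest value was that of 0 h for Egr1, Zfp36 and Dusp1, of 8 h for Ier3 and Btg2, of 36 h for Myc and of 168 h for Klf6 and Mcl1. The rescaling itself moved changes against 0 h by -0.33 at 16 h to 0.97 at 168 h. Without it the share of all calls that were higher went from 53.1% to 37.2% at 8 h, 58.7% to 74.2% at 16 h, 56.2% to 36.5% at 24 h, 53.1% to 38.3% at 48 h and 48.0% to 14.8% at 168 h. At 168 h the changes of Btg2, Klf6 and Mcl1 then stood at -0.27, -0.19 and -0.51 instead of 0.52, 0.51 and 0.38.

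A trend over the 8 ordered times was tested with limma on all 4779 genes, of which 0.0209% were called. None of the 8 immediate early genes was called, with an adjusted p of 0.505 for Ier3, whose unadjusted p of 0.0297 was the only one of the 8 under 0.05, to 0.739 for Btg2 (limma F test with Benjamini-Hochberg adjustment). The fitted curve is smooth, so a value that stands out in 1 library adds to the spread around it.

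A list of 43 other immediate early genes also had a median above 0 at 3 h and lay lower afterwards. Of the 43, 37 were measured and 24 were tested. At 3 h 9 of the 24 were higher by 1 or more and 1 was lower, with a median of 0.63 (18.1% and 21.4% of all tested genes). At 24 h 4 were higher and 12 lower, with a median of -0.98 (18.4% and 14.4% of all tested genes). At 168 h 3 were higher and 15 lower, with a median of -1.58 (17.8% and 19.2%). The 4 higher at 24 h are thus near the share of all genes. At both times the median of the 8 named genes was closer to 0, at -0.62 and 0.09, a difference that was not tested. At the ends of the list at 3 h, Gadd45g, a growth-arrest gene, went from 9.22 at 0 h to 699 at 3 h, and Cyr61, a matricellular protein gene, from 7.32 to 2.08. Junb, a partner in the AP-1 dimer, was at 74.6, 272 and 15.4 at 0, 3 and 168 h.

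**Figure D3:**
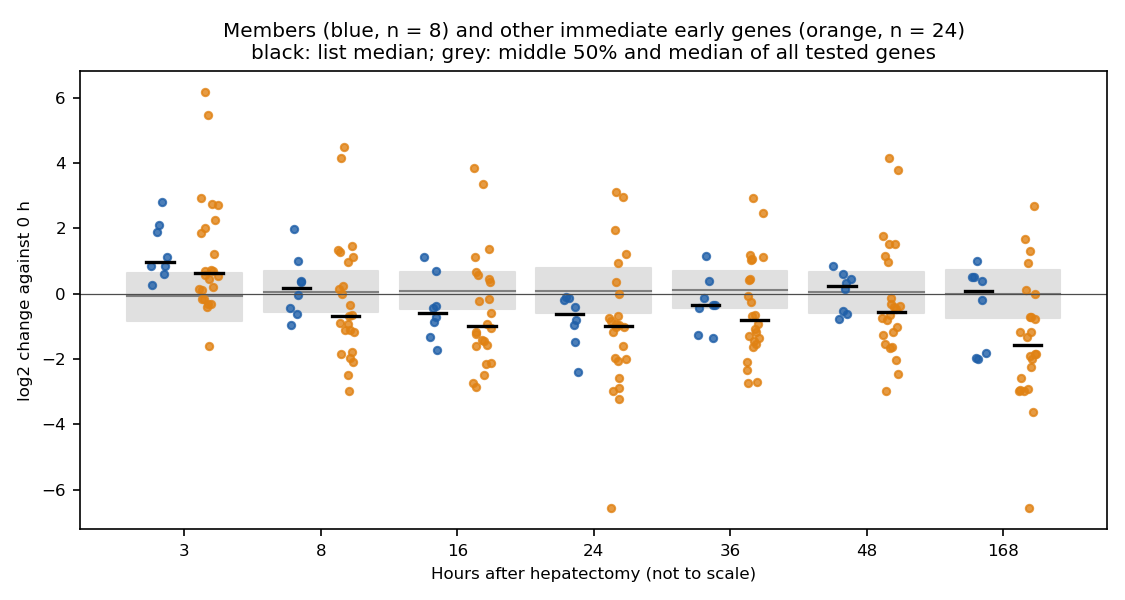
Log2 change of Pol II signal per bp against the single 0 h library (y axis) at each later time (x axis, not to scale), with blue points for the 8 tested immediate early genes, orange points for the 24 other immediate early genes and black bars for list medians. Grey bands hold the middle 50% of all tested genes around their median, and the blue medians are 0.98, -0.62 and 0.09 at 3, 24 and 168 h while the orange median ends at -1.58.

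Relatives of the 10 genes gave few testable values and did not move as one, and their counts at 3 h stand beside 18.1% higher and 21.4% lower among all tested genes. Of the 6 genes of EGR proteins and their NAB corepressors, Egr1 and Nab2 were tested, and Nab2, which represses EGR activity, was at 7.18 at 0 h and 2.99 at 3 h. Of serum response factor and its ternary complex partners only Elk4 was tested (1 of 6), with a change of -0.14 at 3 h. In the ZFP36 family (3 of 4 tested) none was past 1 at 3 h, and all 3 were lower by 1 or more at 168 h. Zfp36l1, another decay factor, went from 17.9 at 0 h to 12 at 3 h, in the opposite direction to Zfp36.

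Of 6 BTG and TOB genes 5 were tested, with 1 higher and 2 lower by 1 or more at 3 h. Tob1, an antiproliferative relative of Btg2, went from 17.1 to 3.32, a log2 change of -2.20 beside the 2.10 of Btg2. Among the MAP kinase phosphatases 3 of 11 were tested and none was past 1 at 3 h, and Dusp6, an ERK phosphatase, went from 9.62 to 5.85. In the KLF family 10 of 17 were tested, with 1 higher and 1 lower at 3 h: Klf13 went from 3.8 to 16.2 and Klf16 from 2.78 to 0.153.

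In the MYC, MAX and MXD network 6 of 13 genes were tested, with 2 higher and 1 lower at 3 h. Mnt, which competes with MYC for MAX, went from 1.62 to 8.43, and Mlxipl, the carbohydrate-responsive factor, from 5.48 to 1.27. Of 14 growth genes that respond to MYC 5 were tested and 1 was higher, Ldha, lactate dehydrogenase A, which went from 5.53 to 27.2, while Nop56, of ribosome biogenesis, was at 1.19 and 1.21. In the BCL2 family 10 of 14 were tested, with 3 higher and 3 lower at 3 h. Bcl2l11, the proapoptotic BIM, went from 2.32 to 6.94, and Bok from 1.29 to below 0. Among the tested relatives and other immediate early genes, 60 in all, 0 were called by the limma trend test and 12 had an unadjusted p under 0.05 (20%), against 9.60% of all tested genes.

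The genes whose Pol II pattern was most like that of Egr1 were ranked by Pearson's r over the log2 values of the 8 libraries, as a description across libraries that share 1 scaling. The first 5 of 4778 were D10Wsu102e (r = 0.96), Junb (0.95), Midn (0.95), 6430527G18Rik (0.94) and Furin (0.94). D10Wsu102e lay below 0 at 16, 24, 36 and 168 h and reached 2.66 at 3 h, and 6430527G18Rik lay below 0 at 24 and 168 h. Such values count as 0 for the log2, so these r rest partly on floored points. Of the 10 genes, Zfp36 came closest (0.94, rank 7), followed by Btg2 (0.81), Dusp1 (0.73), Ier3 (0.62), Myc (0.58), Klf6 (0.53) and Mcl1 (0.39). With 8 points and a shared maximum at 3 h, a high r rests on few libraries.

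Markers of cell types were read in the same libraries. All 10 hepatocyte markers were tested, and their summed level was 454 to 853, highest at 3 h. Apoa1, an apolipoprotein, made up 648 of that 853, against 305 at 0 h. The median log2 change of the 10 markers at 3 h was -0.82, with 4 lower by 1 or more (Ttr, Serpina1b, Trf and Alb) and 2 higher (Apoa1 and Tat), so most of the list was lower than at 0 h. Of 8 measured macrophage and neutrophil markers, 5 were tested, and their sum was 2.24 to 10.5, also highest at 3 h, where Cd14 was at 8.30 against -0.15 at 0 h and 5 of the 8 were at or below 0. The 8 endothelial markers, 2 of them tested, summed to 1.59 to 3.07. None of the 8 stellate cell markers was tested, and all 8 were at or below 0 at 0 and 3 h. None of the 5 measured cholangiocyte markers and 1 of 8 lymphocyte markers was tested. The part of these shifts in the 3 h values was not tested.

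C/EBP regions lay near all 10 genes, and for most of them at all times. The deposited lists held 20061 to 54574 regions, with median widths of 17 to 26 bp, and a region was assigned to a gene when its centre was within 10 kb of the gene start. Egr1, Ier2, Ier3, Zfp36, Dusp1 and Myc had a C/EBPalpha region in all 8 lists (6 of 10, against 18.6% of measured names and 41.7% of genes tested for Pol II). The same genes and Klf6 had a C/EBPbeta region in all 8 lists (7 of 10, against 21.4% and 47.6%). Btg2 had regions in 6 lists of each factor, Mcl1 in 3 of C/EBPalpha and 6 of C/EBPbeta, and Egr2 in none of C/EBPalpha and 1 of C/EBPbeta, at 3 h. The 4 genes short of regions in all 16 lists were thus Egr2, Btg2, Klf6 and Mcl1, against 17.1% of measured names and 39.4% of tested genes that had regions in all 16, and all 10 genes had a region in at least 1 list, where 32.5% and 6.38% had none. Ier3 had regions in all 16 only through a site shared with a neighbour. Its 1 C/EBPalpha region at 16 h belonged to a site 1712 bp past its start and 44 bp from the start of Flot1.

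Regions of the 16 lists with centres within 100 bp of each other were joined into sites, which gave 67 sites around the 10 genes. Of these, 7 were in all 16 lists (10.4%, against 6.20% of all sites in the genome) and 24 were in 1 list (35.8%, against 50.5%). The genome sites lay at any distance from a gene start, so they are an unlike set. In C/EBPbeta lists only were 21 of the 67 sites, and in C/EBPalpha lists only 9. The C/EBPbeta list was the longer at every time but 168 h, with 54574 regions against 29383 at 0 h. The part of list length in this split was not tested. Upstream of the start lay 23 of the 67 sites, inside the gene model 20 and past its end 24. For neither split was a share over all sites computed. The numbers per gene ran from 1 for Egr2 and 3 for Btg2 to 10 for Dusp1. The map of sites shows them by distance from each start.

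**Figure D4:**
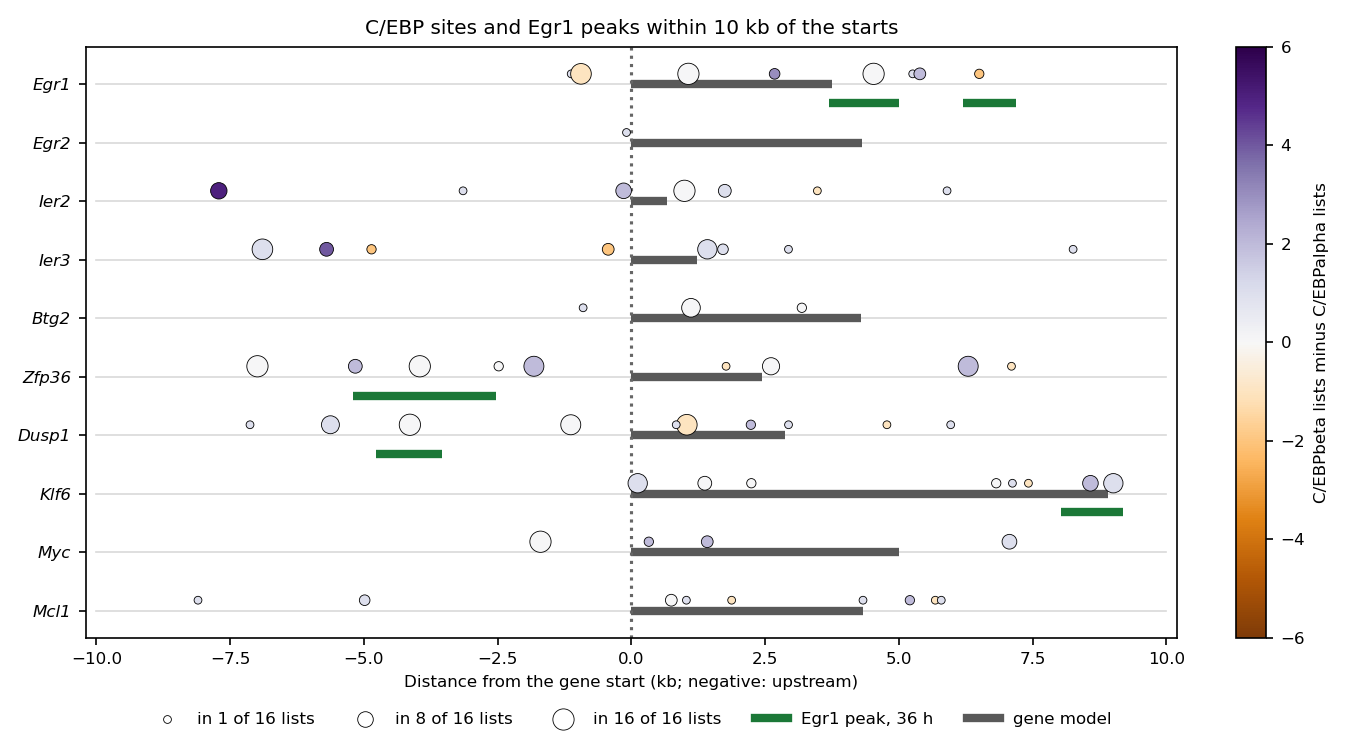
C/EBP sites (circles, larger when found in more of the 16 lists), gene models (grey bars) and Egr1 peaks at 36 h (green bars) around the 10 gene starts (x axis, kb from the start, negative upstream). Circle colour gives the number of C/EBPbeta lists minus the number of C/EBPalpha lists, the 7 sites found in all 16 lists are white and largest, and green bars appear at 4 of the 10 genes, none of them within 1 kb of the start.

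The 7 sites in all 16 lists belonged to 5 genes. The one at Ier2 (chr8:87185580-87185721, 992 bp past the start) ranked highest of the 7. By the authors' score it was number 6 of the C/EBPbeta list at 36 h, within its top 0.0190%, and no worse than the top 2.95% of any list. It lay past the end of the gene model in the files, at a distance from the start shorter than the 1522 bp of the RefSeq gene. The site upstream of Dusp1 (chr17:26649482-26649634, 4140 bp before the start) was within the top 0.345% to 7.51% of every list. The site upstream of Myc (chr15:61815117-61815233, 1699 bp before the start) varied more, from the top 0.562% for C/EBPalpha at 0 h to the top 25.9%.

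Egr1 held a pair of such sites, inside the gene model at chr18:35021876-35022019 (1066 bp past the start) and beyond its end at chr18:35025281-35025444 (4527 bp past the start). They were within the top 3.88% to 38.0% and 4.06% to 35.9% of the lists. Another site, 942 bp before the Egr1 start, was in 15 lists and missed in C/EBPbeta at 24 h, where a region 1125 bp before the start was listed. Zfp36 held a pair upstream, at chr7:29168056-29168449 (3955 bp before the start) and chr7:29171189-29171449 (6989 bp before the start), which were weaker, from the top 5.57% to 52.1% and from 14.2% to 99%. The farther of them lay 6390 bp from the start of Med29, so it was nearer to that gene than to Zfp36.

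Other sites near the starts were seen in fewer lists. Klf6 had a site 118 bp past its start in 13 lists (top 3.84% to 56.7%), and Ier2 one 145 bp before its start in 8 (top 52.8% to 97.3%). Sites found only with C/EBPbeta lay 326 bp past the start of Myc (3 and 36 h), 100 bp before that of Egr2 (3 h) and 902 bp before that of Btg2 (3 h). By score these were in the top 48.1% and 84.3% at Myc, 82.2% at Egr2 and 68.4% at Btg2. Mcl1 had one 746 bp past its start, in C/EBPbeta at 3 and 36 h and in C/EBPalpha at 8 and 168 h. Within 1 kb of the start, 7 of the 10 genes had a C/EBPbeta region at 3 h (27.5% of measured names, 51.2% of tested genes) and 5 at 36 h (25% and 46.3%), and these were the lists with the largest shares of all genes as well. The 3 h list, which held such a region for most of these genes, was also rich in them over all genes. Of the 7 genes at 3 h, Myc, Egr2, Btg2 and Mcl1 were counted only through the weakly scored sites just named. Ier3 shared its surroundings with Flot1, since its site in 13 lists, 1420 bp past the Ier3 start, lay 267 bp from the Flot1 start.

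Egr1 peaks at 36 h lay within 10 kb of the start of Egr1, Zfp36, Dusp1 and Klf6 (4 of 10, against 10.9% of measured names and 19.5% of tested genes), and within 1 kb of none (2.24% and 3.79%). The list held 9895 peaks with a median width of 994 bp. The Egr1 gene had 2 of them past its end, at chr18:35024562-35025869, which overlaps the last bases of the gene, and at chr18:35027066-35028051. The authors' scores were 111 and 287, the second in the top 15.5% of the list. Zfp36 had a peak at chr7:29166773-29169456, 3867 bp before the start to its centre, with a score of 281 (top 15.9%). Dusp1 had one at chr17:26648967-26650185, 4156 bp before the start, with a score of 103 (top 50.2%). Klf6 had one at chr13:5868757-5869920, 8603 bp past the start and across the end of the gene, with a score of 209 (top 22.3%). The nearest peaks of the others were 15612 bp (Mcl1) to 393150 bp (Btg2) away.

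Most of these Egr1 peaks held C/EBP regions. Of the 5 peaks, 4 held the centre of a C/EBPbeta region of the same time, 36 h, against 43.3% of all Egr1 peaks. The peaks at Zfp36 and Dusp1 and the first peak at Egr1 each held C/EBP centres of all 16 lists, as did 24.7% of all peaks, and 3 of the 7 sites in all 16 lists thus lay inside an Egr1 peak. The share of all such sites in the genome that lay inside an Egr1 peak was not computed, so this count has no baseline. All 5 peaks held a centre of at least 1 list, as did 60.2% of all peaks. The Klf6 peak held centres of 14 lists, and the second Egr1 peak, with the highest score of the 5, held 2, both of C/EBPalpha. EGR motifs were found in the RefSeq promoter windows of Btg2 and Zfp36. Of those, Btg2 had its nearest Egr1 peak 393150 bp away and Zfp36 its peak 3867 bp before the start, so neither had a peak at the start in these data.

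Side by side, the genes with an Egr1 peak within 10 kb included Egr1, Zfp36 and Dusp1, the 3 with the highest Pol II level per bp at 3 h, and Klf6, the lowest of those tested. The 5 genes lower by 1 or more at 8 h than at 3 h included those 3 and Myc and Btg2, which had no Egr1 peak within 10 kb. At 36 h itself Pol II at the 4 genes with a peak stood below 0 h, with log2 changes of -1.26 (Egr1), -1.34 (Zfp36), -0.35 (Dusp1) and -0.44 (Klf6). This was not particular to them. Of the tested genes without a peak, Mcl1 (-0.34) and Ier3 (-0.13) were also below 0 h, and Btg2 (0.39) and Myc (1.15) were above. The share of all tested genes below 0 h at 36 h was not computed, and the median log2 change of all tested genes at that time was 0.12. With 1 library each these are values only, and no relation between peaks and Pol II was tested.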

How the data were processed

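Pol II, C/EBPalpha and C/EBPbeta ChIP-seq at 8 times and Egr1 ChIP-seq at 36 h gave 25 files from 26 samples, and the mock sample at 0 h was not analysed here. Samples were grouped by antibody and time in their titles. The submitters' processing notes list Bowtie 0.12.7, MACS 1.4.1 and mm9 without their roles. The authors' deposited files hold a score per row: a signed Pol II signal per gene body, a score per C/EBP region and a score per Egr1 peak, used only to rank regions within a list. The sources used here give neither control libraries nor scaling, and depth is unknown because no counts are given.

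Pol II scores were divided by body width (500 bp or more) and put on a common scale by median-of-ratios factors from the 1479 genes above 0.5 per bp in all 8 libraries. For the log2, negative values counted as 0 and a pseudocount of 0.5 was used, which understates changes of low genes. Genes above 0.5 in at least 2 libraries were fitted with limma 3.58.1 in R 4.3.3, using a natural spline of the time rank (3 degrees of freedom) and a Benjamini-Hochberg threshold of 0.05, after a check on simulated data. The unit is not a count, so the test planned for normalized values was used. Gene starts are body starts moved back by 500 bp. Promoters and gene lengths are from RefSeq, GRCm38.p6.

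The 10 genes and all gene lists were chosen with earlier results of these data known. All 10 were named, with the highest and lowest tested gene at 3 h of each list and the 5 genes most like Egr1. Junb and genes named for a small count were taken beyond this rule after their values were seen. Alternatives were no rescaling, a background per library, pseudocounts of 0.05 and 2, no filter, a spline with 2 degrees of freedom, distances of 1 and 50 kb, and leaving out each library.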

Additional observations from a re-analysis of the deposited data

How the results depend on the processing

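No paired analysis was possible because each antibody and time had 1 sample and no replicate numbers. The number of genes called by the limma trend test went from 1 to 0 with a pseudocount of 0.05 and with no filter on low values, and ranged from 0 to 1 when each library was left out in turn. It was 0 without any of the libraries of 0 to 48 h and 1 without that of 168 h, and the cause was not tested. No alternative called any of the 8 tested immediate early genes, whose adjusted limma p ran from 0.12 to 0.941 with a library left out and from 0.361 to 1 otherwise.

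Without rescaling, the members of the 8 higher by 1 or more became 1 at 8 h and 0 at 168 h, and those lower by 1 or more became 1, 1, 4, 1 and 4 at 8, 16, 24, 48 and 168 h, the fourth at 168 h being Dusp1. A background set per library gave 1 higher at 8 h and 0 at 168 h. A pseudocount of 0.05 gave 4 lower at 24 h, and a pseudocount of 2 gave 1 higher at 8 h and 0 higher at 16, 36 and 168 h. All these counts are of 8 genes near a threshold of 1. The number highest at 3 h was 7, or 8 without rescaling, alternatives chosen after seeing the data. With a distance of 1 kb in place of 10 kb, 1 of the 10 genes had a C/EBPalpha region in all 8 lists, 0 had a C/EBPbeta region in all 8 and 0 had an Egr1 peak, as the smaller window holds fewer regions. Direction could be scored only for the 280 alternative values of single-gene changes. None of these reversed a change past the threshold, and 19 crossed the threshold. Of all 563 alternatives computed, 504 were scored the same, 50 moved and 9 gave a weaker trend result. A setting that allowed any start of a gene name repeated the main setting, so it could not differ.

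Precision is limited by 1 library per time and unknown depth. Bodies under 500 bp, such as that of Ier2, and negative or low levels, such as those of Egr2 and Klf6, limit what can be read.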
